A study of Mus musculus with 14 samples.

Results

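Non-cycling brain endothelial cell (EC) nuclei were nuclei that the authors labeled as ECs in single nucleus RNA sequencing (snRNAseq) of brain vascular fragments, and in which no transcript of *Mki67*, *Top2a*, *Aspm* or *Kif11* was counted. They were therefore chosen by the measured values of these 4 genes, which mark or drive cell division, and the absence of the 4 transcripts is a selection and not a finding. Transcripts were counted as unique molecular identifiers (UMIs), so that PCR copies of a molecule count once. The selection left 4306 of 5419 EC nuclei, of 31324 brain nuclei in all. The control library gave 2204 of its 2475 EC nuclei, and the knockout library gave 2102 of its 2944.

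The study asked what loss of TGF-beta signaling in ECs does to the vasculature of the retina and brain. In *Cdh5CreER;Tgfbr1 CKO/-* (CKO) mice, which carry 1 conditional and 1 null allele of *Tgfbr1*, a Cre recombinase driven by the *Cdh5* promoter was activated in ECs with 4-hydroxytamoxifen (4HT) given between postnatal days 3 and 5. The control library is labeled wild type, whereas the study speaks of phenotypically WT controls, which for retinas it describes as typically carrying the Cre and 1 conditional allele beside a normal one. The sources used here do not give the alleles of the mice in this library or say whether they received 4HT. The study places the mice at postnatal day 14 and the series text calls them young adults. Vascular fragments of 2 brains were pooled for each library, and there was 1 library per genotype, so every difference below compares these 2 libraries and not the genotypes, and no test was possible.

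ECs of the central nervous system form the blood-brain barrier. They are sealed by tight junctions, they carry nutrients through dedicated transporters while pumps return foreign compounds to the blood, and they hold vesicle traffic low, a state that Norrin and Wnt signals maintain. Along the vessel tree they differ as arterial, capillary and venous cells, with tip cells at growing ends, and they lay down a basement membrane that they share with pericytes. TGF-beta ligands act on ECs through the type II receptor TGFBR2 and the type I receptor TGFBR1, which activate SMAD proteins.

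The non-cycling nuclei of the control library held 4694210 UMIs, and those of the CKO library held 3954937. A nucleus held a median of 1250.5 UMIs and 809 genes in the control and 1237.5 UMIs and 904.5 genes in the CKO library. No barcode of these nuclei was shared between the libraries (0 shared, against 2 among all brain nuclei). Levels are given as CPM, the UMIs of a gene in 1000000 UMIs of these nuclei, and ratios are CKO over control. Intervals are at 95% and reflect counting error alone, so they say nothing of the spread between mice.

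The EC label held against its markers. *Cldn5*, the main claudin of brain EC tight junctions, was at 2613 CPM in the control and 2069 CPM in the CKO library. The VEGF receptor gene *Flt1* was at 4328 and 3188 CPM. The organic anion transporter gene *Slco1a4* was at 1883 and 1280 CPM. The adhesion molecule gene *Pecam1* was at 603 and 524 CPM. All 4 were thus abundant in both libraries and lower in the CKO library. The 12 EC identity genes summed to 16420 CPM in the control and 13166 CPM in the CKO library, against 10.7 and 6.15 CPM in the glutamatergic neuron cluster Glut_0 of the same libraries. Within this list the ratios were not uniform. *Ptprb*, the phosphatase that restrains TIE2, had the lowest ratio, 0.552 (0.534 to 0.571), and *Cdh5*, which encodes VE-cadherin and whose promoter drives the Cre, had the highest, 1.52 (1.45 to 1.59).

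Transcripts of marker genes of other cells were found in these nuclei, and their source and part in the results were not tested. All 12 of 12 pericyte markers were detected, with a summed level of 9003 CPM in the control and 8096 CPM in the CKO library. The most abundant was *Rgs5*, at 5804 and 5233 CPM. It was at 5253 CPM in the 201 control nuclei labeled pericytes, so its level did not set the 2 cell types apart. At least 1 pericyte UMI was found in 84.8% (83.2 to 86.3) of control and 95.1% (94.1 to 96.0) of CKO nuclei. *Rgs5* alone was found in 84.4% and 93.6% of them. This share therefore largely follows *Rgs5*, as does the group with 0 pericyte marker UMIs used below. The pericyte signal was not *Rgs5* alone. *Pdgfrb* was found in 42.1% of control and 53.2% of CKO nuclei, against 0.237% and 0.0322% of Glut_0 neurons. Hemoglobin transcripts made up 2.06% of the UMIs of the control and 1.04% of those of the CKO library. All 4 of 4 erythroid genes were detected, and the most abundant, *Hbb-bs*, was at 10998 and 5260 CPM, although its near-identical paralogs make the split between hemoglobin genes uncertain. Fibroblast markers, 7 of 7 detected and led by *Col1a2*, summed to 818 and 706 CPM, with *Dcn*, *Pdgfra* and *Slc6a13* at least 2-fold lower in the CKO library. The *Dcn* ratio of 0.485 was 0.671 with thinning and 0.557 in nuclei with 0 neuron marker UMIs. With no UMI of the G2/M list it was 0.607, and that of *Pdgfra* 1.26, both from few UMIs and without intervals. Smooth muscle markers, 6 of 7 detected and led by *Acta2*, summed to 115 and 106 CPM, with *Cnn1* at 0 in both. Neuronal markers, 8 of 8 detected and led by *Rbfox1*, summed to 444 and 372 CPM.

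Glial and immune markers were scarcer than pericyte markers. The 7 astrocyte markers, led by *Gja1*, which ECs also express, summed to 445 CPM in the control and 444 CPM in the CKO library, although members moved both ways, with ratios of 1.30 for *Gja1*, 1.39 for *Slc1a3* and 0.519 for *Slc1a2*. The ratio of *Slc1a2* was 1.37 in nuclei with no UMI of the G2/M list. In nuclei with 0 pericyte marker UMIs it was 28.1, and that of *Gja1* was 8.42, both without intervals. The 6 oligodendrocyte markers, led by *Mbp*, summed to 67.1 and 75.1 CPM. The 6 microglia and macrophage markers, led by *Mrc1*, summed to 100.1 and 87.0 CPM. These also moved both ways. *C1qa* was past 2-fold lower, with a ratio of 0.477 (0.327 to 0.686). In nuclei with no UMI of the G2/M list its ratio was 1.52, from few UMIs and without an interval. *Ptprc*, *Cx3cr1* and *P2ry12*, each under 100 UMIs, had ratios of 2.09 (1.19 to 3.76), 1.31 (0.763 to 2.27) and 1.31 (0.680 to 2.52).

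The pools also differed in sex-linked transcripts. *Xist*, the RNA of the inactive X chromosome, was counted 10334 times in the control and 2 times in the CKO library, at 2201 and 0.506 CPM. The 4 Y chromosome genes summed to 204 CPM in the control and 446 CPM in the CKO library, where *Ddx3y* led with 98.4 and 207 CPM. *Xist* was thus abundant in the control pool and close to 0 in the CKO pool, and sex cannot be told apart from genotype in these 2 libraries.

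The share of EC nuclei with 0 UMIs of the 4 cell cycle genes was 89.1% (87.8 to 90.3) in the control library, against 71.4% (69.7 to 73.0) in the CKO library. The nuclei that were left out were deeper, with medians of 2861 UMIs in 271 control nuclei and 2598.5 UMIs in 842 CKO nuclei, and the reason was not tested. With nuclei thinned to 1000 UMIs each, the shares were 91.5% and 79.4%. Nuclei just outside the threshold, with exactly 1 UMI of the 4 genes, numbered 131 and 330 in the control and CKO library. Their *Cldn5* levels were 2564 and 1795 CPM and their *Flt1* levels 3218 and 2480 CPM, while nuclei just inside it, with 0, were at the levels given above.

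Other cell cycle transcripts were fewer in the selected nuclei but not absent. The G2/M list without the selecting genes, 51 genes, summed to 1177 CPM in the control and 1558 CPM in the CKO non-cycling nuclei, against 4241 and 4208 CPM in the nuclei with a UMI of the selecting genes. In Glut_0 neurons, which do not divide, it summed to 296 and 269 CPM. The S phase list summed to 689 and 968 CPM in the non-cycling nuclei. Cell cycle transcripts therefore stood above the level in neurons in both libraries and higher in the CKO library, and how many of these nuclei were still in the cycle was not tested. EC nuclei with no UMI of the whole G2/M list were shallow, with medians of 575 UMIs in 701 control and 601 UMIs in 451 CKO nuclei. They held 508784 and 335350 UMIs in all. Ratios given for this group have no intervals and are uncertain for genes with few UMIs.

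*Tgfbr1*, the targeted gene (chr4:47353134-47414931 on the plus strand of GRCm39), was counted 325 times in the control and 216 times in the CKO library. Its level was 69.2 CPM in the control and 54.6 CPM in the CKO library, a ratio of 0.789 (0.661 to 0.940). Transcripts were captured at the 3′ end, so counts of the gene do not test whether the conditional part was deleted. In all EC nuclei the ratio was 0.910 and in the nuclei with a cell cycle UMI it was 1.08.

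The partner receptors were higher in the CKO library. *Tgfbr2*, the type II receptor that binds ligand, was at 401 CPM in the control and 792 CPM in the CKO library, a ratio of 1.97 (1.86 to 2.09). *Tgfbr3*, which encodes betaglycan, a coreceptor that presents ligand, was at 108 and 372 CPM, a ratio of 3.43 (3.10 to 3.80), or 8.89 in nuclei with no UMI of the G2/M list. In the other direction, *Eng*, the endothelial coreceptor endoglin, was at 813 and 529 CPM, a ratio of 0.651 (0.617 to 0.687). *Acvrl1*, the type I receptor ALK1, was at 260 and 195 CPM, with a ratio between 0.684 and 0.821. *Bmpr2*, the type II receptor for bone morphogenetic proteins, was at 947 and 673 CPM, a ratio of 0.711. Of the ligands, *Tgfb2* was at 240 and 492 CPM, a ratio of 2.05 (1.91 to 2.21) that is 1.88 with TMM scaling and 0.824 in nuclei with 0 pericyte marker UMIs, whereas *Tgfb1* was at 32.2 and 32.1 CPM.

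Target genes of the pathway were mostly lower in the CKO library, while SMADs and their inhibitors split. Of 10 tested targets, 8 had ratios under 1, and *Ltbp1* and *Tgif1* had ratios of 4.84 and 1.35. Of 12 tested SMADs and inhibitors, 6 had ratios under 1 and 6 above. *Skil*, a SMAD corepressor that SMAD signaling itself induces, was at 174 CPM in the control and 29.6 CPM in the CKO library, a ratio of 0.170 (0.139 to 0.207), or 0.0376 in nuclei with no UMI of the G2/M list. *Pmepa1*, another induced inhibitor, was at 290 and 69.5 CPM, a ratio of 0.239 (0.210 to 0.273), or 0.113 in the same nuclei and 0.132 in those with 0 pericyte marker UMIs. *Smad7*, the inhibitory SMAD, was at 218 and 91.0 CPM, a ratio of 0.417 (0.369 to 0.471), or 0.0456 in nuclei with 0 pericyte marker UMIs. *Id1*, a target of BMP signals through ALK1, was at 879 and 521 CPM, a ratio of 0.593. Among the receptor-activated SMADs, *Smad1* was at 159 and 234 CPM, a ratio of 1.47, and *Smad3* was at 89.5 and 102 CPM, a ratio of 1.14 whose interval of 0.988 to 1.31 includes 1. Of 35 pathway genes tested, of 41 listed, 3 were at least 2-fold higher, *Tgfb2*, *Tgfbr3* and *Ltbp1*, and 4 at least 2-fold lower, among them *Smad7*, *Skil* and *Pmepa1*.

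As the background for such counts, 8527 genes had at least 100 UMIs in the non-cycling nuclei of both libraries together and were compared. Of these, 468 genes, or 5.49%, were at least 2-fold higher in the CKO library and 247 genes, or 2.9%, were at least 2-fold lower. The median log2 ratio of all 8527 genes was 0.12. Scaling by TMM, which sets the libraries level on the bulk of genes and not on total UMIs, shifts every log2 ratio by -0.13, so ratios a little above 1 fall below it on that scale.

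Barrier genes were mostly lower in the CKO library, by less than 2-fold. Of 91 listed genes all were detected and 82 had enough UMIs. Of these, 2 were at least 2-fold higher, *Cldn12* and *Cav1*, and 5 at least 2-fold lower, *Abcc6*, *Tfrc*, *Lrp8*, *Foxq1* and *Fgfbp1*. The share past 2-fold is 2.44% upward, below the 5.49% of all genes, and 6.10% downward, above their 2.9%. The downward share was close to that of all genes in nuclei with 0 pericyte marker UMIs, at 23.3% of 43 against 24.1% of 502 genes, and in those with no UMI of the G2/M list, at 8.70% against 7.88%. Ratios under 1 were found for 73.2% of the 82 genes against 38.3% of all genes, and the median log2 ratio was -0.23 against 0.12. The 8 EC identity genes outside the barrier list had a median log2 ratio of -0.24, so a shift of this size was not particular to barrier genes.

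Junction genes differed little. Among 20 tested of 24, the median log2 ratio was -0.19 and *Cldn12*, a claudin at 6.18 CPM in the control and 18.0 CPM in the CKO library, was the only gene past 2-fold. Its ratio of 2.91 was 1.97 in the nuclei with lower pericyte shares, 5.13 with each nucleus weighted equally and 6.90 with thinning. *Cldn5* had a ratio of 0.792 (0.770 to 0.814). *Ocln*, which encodes the tight junction protein occludin, was at 364 and 298 CPM, a ratio of 0.820. The scaffold gene *Tjp1* was at 1562 and 1584 CPM, and its ratio of 1.01 (0.981 to 1.05) falls below 1 with TMM scaling. *Cdh5* was higher, at 687 CPM in the control and 1044 CPM in the CKO library.

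Solute carriers were lower as a group. All 23 of 23 genes were tested and 20 of them were lower in the CKO library, also with TMM scaling, yet none was past 2-fold. Their median log2 ratio was -0.48, and their UMIs summed to 24467 CPM in the control and to 0.782 times that level in the CKO library. *Slc7a5*, which carries large neutral amino acids, was at 2612 CPM in the control and 1494 CPM in the CKO library, a ratio of 0.572 (0.554 to 0.590). Its partner chain gene *Slc3a2* was at 732 and 470 CPM, a ratio of 0.641. The glucose transporter gene *Slc2a1* was at 1998 and 1434 CPM, a ratio of 0.718 (0.694 to 0.742). These genes for the main fuels and building blocks of the brain thus moved in the same direction.

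The lowest ratio among carriers was that of *Mfsd2a* (chr4:122840643-122855244, minus strand), which takes up lysophospholipids that hold omega-3 fatty acids. It was at 776 CPM in the control and 405 CPM in the CKO library, a ratio of 0.522 (0.492 to 0.554). *Slc16a1*, for lactate and ketone bodies, was at 3155 and 2130 CPM, a ratio of 0.675 (0.657 to 0.694). The thyroxine transporter gene *Slco1c1* was at 3498 and 3150 CPM, a ratio of 0.901 (0.880 to 0.922), the mildest difference of the 3 most counted carriers that were lower. Among the exceptions were *Slc6a6*, for taurine, at 2247 and 2967 CPM with a ratio of 1.32 (1.29 to 1.36), and *Slc5a6*, for vitamins such as biotin, whose ratio of 1.12 has an interval of 0.908 to 1.38.

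Efflux pumps split, with 3 of 5 tested under 1 and 2 above and a median log2 ratio of -0.09. *Abcb1a*, which encodes P-glycoprotein, was at 1553 CPM in the control and 1732 CPM in the CKO library, a ratio of 1.11 (1.08 to 1.15). *Abcg2*, the breast cancer resistance protein, was at 563 and 826 CPM, a ratio of 1.47 (1.39 to 1.55). *Abca1*, which exports cholesterol, was at 631 and 593 CPM. Only *Abcc6*, among the 5 of 6 pumps tested, was past 2-fold, at 131 and 64.7 CPM with a ratio of 0.496 (0.427 to 0.574), so close to the threshold that it was 0.503 in all EC nuclei.

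Of the 7 tested receptors that carry cargo across ECs, 5 were lower, 2 of them by far. *Lrp8* (chr4:107659066-107734038, plus strand), a lipoprotein receptor, was at 792 CPM in the control and 185 CPM in the CKO library, a ratio of 0.233 (0.215 to 0.252). *Tfrc* (chr16:32427556-32451612, plus strand), the transferrin receptor that brings iron into the brain, was at 1457 and 508 CPM, a ratio of 0.349 (0.331 to 0.366). The insulin receptor gene *Insr*, at 892 and 729 CPM, and *Igf1r*, at 3721 and 3146 CPM, had ratios of 0.818 and 0.845. The other 2 had ratios above 1, among them *Lrp1*, whose ratio of 1.09 has an interval of 0.927 to 1.29. The median log2 ratio was -0.29, and 10 receptors were listed.

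Caveola genes went the other way. *Cav1* (chr6:17306140-17341451, plus strand), the coat protein of caveolae, was at 259 CPM in the control and 711 CPM in the CKO library, a ratio of 2.74 (2.56 to 2.93). *Cavin1*, needed to form caveolae, was at 272 and 407 CPM, with a ratio between 1.39 and 1.61, and *Cavin2* at 175 and 160 CPM, a ratio of 0.915 with an interval of 0.824 to 1.02. The median log2 ratio of 6 tested of 7 genes was 0.47. *Plvap*, which forms the diaphragms of leaky vessels and is a mark of ECs outside the barrier, was counted 19 times in the control and 3 times in the CKO library, a ratio of 0.187 (0.0355 to 0.637), so it was scarce in both.

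Genes of Norrin and Wnt signaling were mildly lower, 17 of 21 under 1 with a median log2 ratio of -0.19. *Apcdd1*, a Wnt antagonist that Wnt signals induce in brain ECs, was at 2376 CPM in the control and 1421 CPM in the CKO library, a ratio of 0.598 (0.579 to 0.618). The transcription factor genes *Lef1*, at 908 and 883 CPM, and *Sox17*, at 712 and 672 CPM, had ratios of 0.973 and 0.945. *Foxq1*, another transcription factor gene of brain ECs, was at 348 and 170 CPM, a ratio of 0.488 (0.445 to 0.534), or 0.506 with nuclei thinned to 1000 UMIs. It was 0.571 in nuclei with no UMI of the G2/M list and 0.0870 in those with 0 pericyte marker UMIs. *Fgfbp1*, which binds fibroblast growth factors, was at 43.7 and 8.34 CPM, a ratio of 0.191 (0.128 to 0.277). The receptor gene *Fzd4* was at 205 and 180 CPM, a ratio of 0.875.

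**Figure D1:**
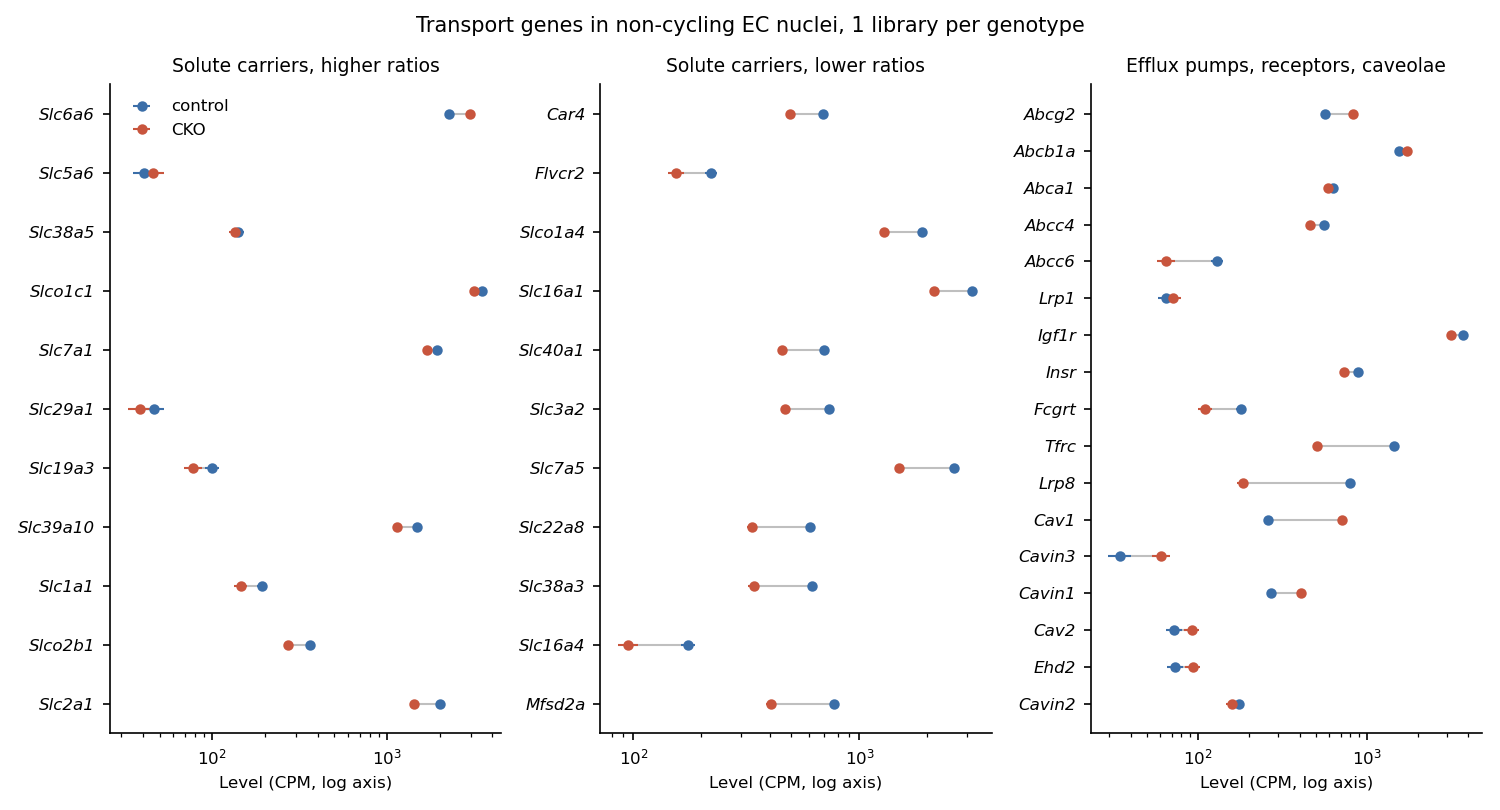
Levels of solute carriers, efflux pumps, cargo receptors and caveola genes in non-cycling EC nuclei of the control (blue) and CKO (red) library, in CPM on log axes, with 95% Poisson intervals that are often smaller than the points. Of the 23 tested solute carriers 22 are shown, and of the 7 tested receptors 6, and 20 of the carriers lie lower in the CKO library, while *Cav1* lies higher, at 711 against 259 CPM.

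Zonation genes split by vessel type. Of 65 listed genes, all were detected and 55 tested, of which 1 was at least 2-fold higher, *Nrp2*, and 5 at least 2-fold lower, *Fbln5*, *Rgcc*, *Spock2*, *Tfrc* and *Flt4*. The share upward was 1.82% against 5.49% of all genes, the share downward 9.09% against 2.9%, and the median log2 ratio -0.17 against 0.12.

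Capillary genes were the lower ones. Of 12 tested, 10 had ratios under 1, also with TMM scaling, and the median log2 ratio was -0.76. *Spock2* (chr10:59942041-59971357, plus strand), a proteoglycan gene, was at 2751 CPM in the control and 895 CPM in the CKO library, a ratio of 0.325 (0.313 to 0.338). *Rgcc*, named as a regulator of the cell cycle, was at 129 and 61.7 CPM, a ratio of 0.477 (0.410 to 0.554), which was 0.553 in all EC nuclei and 0.518 with thinning, past 2-fold in neither. Several capillary genes are transporters, namely *Slc7a5*, *Slc16a1*, *Mfsd2a* and *Tfrc*, so that the capillary and barrier lists are not independent. *Itm2a*, at 979 and 1083 CPM with a ratio of 1.11, and *Ivns1abp*, at 130 and 220 CPM with a ratio of 1.69 (1.52 to 1.87), were the 2 capillary genes with ratios above 1.

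Arterial genes did not move as a group, with a median log2 ratio of 0.01 over 20 tested of 22. *Fbln5*, an elastic fiber gene, was at 49.2 CPM in the control and 11.9 CPM in the CKO library, a ratio of 0.241 (0.173 to 0.332), or 0.367 with thinning. *Edn1*, which encodes the vasoconstrictor endothelin-1, was at 584 and 354 CPM, a ratio of 0.606 (0.567 to 0.646). The Notch ligand gene *Dll4* was at 223 and 154 CPM, a ratio of 0.691, and *Efnb2*, the ephrin ligand of arterial ECs, at 121 and 171 CPM, a ratio of 1.41 (1.26 to 1.58). The netrin receptor gene *Unc5b* was at 250 and 388 CPM, a ratio of 1.55. *Arl15* was at 1157 and 1180 CPM, and its ratio of 1.02 falls below 1 with TMM scaling.

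Venous genes also split, with a median log2 ratio of 0.05 over 14 tested of 19. *Nrp2* (chr1:62742444-62857854, plus strand), a coreceptor for VEGF-C and semaphorins, was at 115 CPM in the control and 331 CPM in the CKO library, a ratio of 2.89 (2.61 to 3.20). *Flt4*, the VEGF-C receptor VEGFR3, was at 102 and 49.3 CPM, a ratio of 0.485 (0.409 to 0.574), against 0.503 in all EC nuclei and 1.02 in those with 0 pericyte marker UMIs. The apelin receptor gene *Aplnr* was at 274 and 417 CPM, a ratio of 1.52 (1.42 to 1.64). *Vwf*, which encodes von Willebrand factor, was at 297 and 175 CPM, a ratio of 0.590 (0.538 to 0.647). *Nr2f2*, the transcription factor that sets venous fate, was at 227 and 274 CPM, a ratio of 1.21 (1.11 to 1.32).

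Leukocyte adhesion genes of the venous list stayed scarce. *Icam1* was at 36.0 CPM in the control and 37.7 CPM in the CKO library, and its ratio of 1.05 (0.834 to 1.31) falls below 1 with TMM scaling. *Vcam1* was at 33.9 and 21.5 CPM, a ratio of 0.635. *Sele*, the E-selectin gene, was counted 0 times in the control and 11 times in the CKO library, so that its ratio has a lower limit of 2.98 and no upper one. *Ackr1*, a chemokine-binding receptor of venules, was counted 15 and 62 times, a ratio of 4.91 (2.76 to 9.29).

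Some tip cell genes depended on whether cycling nuclei were included. Over 9 tested of 12 the median log2 ratio was -0.02 in the non-cycling nuclei and 0.12 in all EC nuclei. *Apln*, the apelin ligand of sprouting ECs, was at 214 CPM in the control and 272 CPM in the CKO library, a ratio of 1.27 (1.16 to 1.38), against 1.80 in all EC nuclei and 3.37 in those with a cell cycle UMI. *Angpt2*, which loosens vessels for sprouting, had ratios of 1.02, 1.35 and 2.89 in the same order, the first of which falls below 1 with TMM scaling. *Trp53i11* had ratios of 1.41, 1.82 and 3.09. Among these sets of nuclei, the 3 genes had their highest ratios in those with a cell cycle UMI, whose difference from the others was not tested. *Angpt2* and *Trp53i11* were chosen after their values were seen. *Apln* had a ratio of 13.6 in nuclei with 0 pericyte marker UMIs. *Pdgfb*, the ligand that recruits pericytes, was at 628 and 500 CPM, a ratio of 0.796 (0.752 to 0.843), and *Igfbp3* at 283 and 155 CPM, a ratio of 0.547 (0.496 to 0.602). Their ratios were 0.801 and 0.521 in all EC nuclei, but 1.17 and 0.160 in nuclei with 0 pericyte marker UMIs.

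**Figure D2:**
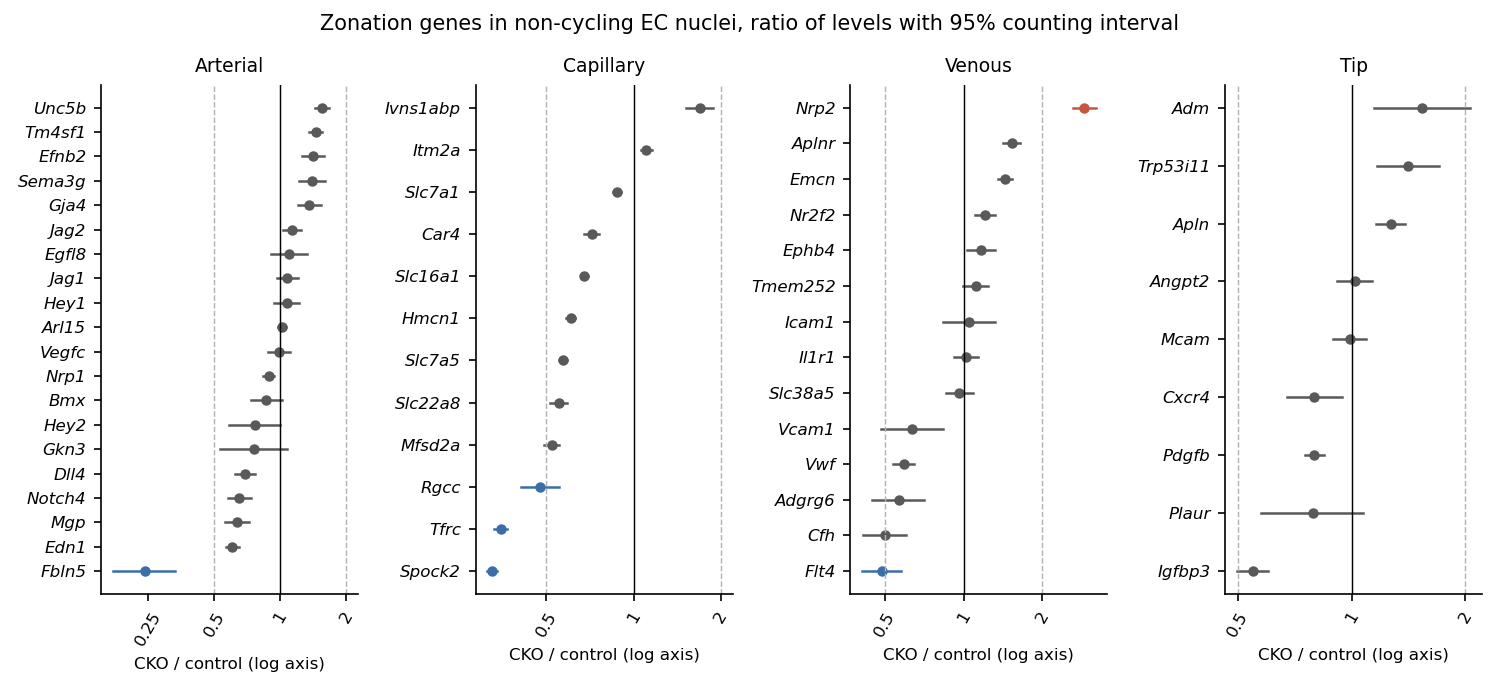
Ratios of CKO over control levels of zonation genes in non-cycling EC nuclei, on log axes, with bars for 95% counting intervals and dashed lines at 2-fold. Colored points are past 2-fold, red higher and blue lower, and 10 of the 12 capillary genes lie under 1.

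To see whether the differences lay in 1 vessel type, nuclei were divided by anchor genes, 8 for arteries and 7 for veins. A nucleus counted as rich in one anchor set if it held at least 3 of its UMIs, at no less than 2 times the mean level of the set, and more than 2 times its relative level of the other set. These are ranges of a score and not cell types. The arterial range held 200 control and 226 CKO nuclei, of which 63 and 86 lay near the limit. The venous range held 235 and 235 nuclei, with 92 and 115 near it, and the rest held 1769 and 1641, with 355 and 427 near it. In the venous range the median nucleus held 0 arterial anchor UMIs in both libraries, and in the arterial range it held 2 and 1 venous ones in the control and CKO library. Capillary anchors were not used, since they themselves differed between the libraries. Smooth muscle markers were at 483 CPM in the control and 330 CPM in the CKO library in the arterial range against 68.7 and 64.5 CPM in the rest. Of the fibroblast markers, *Col3a1* was at 1036 and 610 CPM against 149 and 167 CPM. *Col1a2* was at 1001 and 620 CPM against 214 and 214 CPM. The part of both cell types was not tested.

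Several of the larger differences, chosen after their values were seen, were present in all 3 ranges. *Fn1*, the fibronectin gene, was at 1133 CPM in the control and 417 CPM in the CKO library in the arterial range, at 3087 and 847 CPM in the venous range and at 1764 and 416 CPM in the rest. *Lrp8* was at 385 and 135 CPM in the arterial range, at 770 and 171 CPM in the venous range and at 852 and 196 CPM in the rest. *Slc2a1* had ratios of 0.742, 0.621 and 0.707 in the same order. *Cav1* was higher in each range, with ratios of 1.70 (1.41 to 2.06), 2.83 (2.23 to 3.62) and 2.94 (2.73 to 3.18). *Tgfbr3* was higher too, with ratios of 2.93, 2.73 and 3.61.

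Other genes differed in the rest but little in the arterial range, and some of them in the venous range too. *Pmepa1* had ratios of 0.144 in the venous range and 0.211 in the rest against 1.03 (0.695 to 1.52) in the arterial range. *Lama5*, a laminin chain of mature vessels, had ratios of 0.127 and 0.368 against 0.919 (0.639 to 1.32). *Col15a1*, a basement membrane collagen, had ratios of 5.99 (2.09 to 23.6) and 4.11 (3.23 to 5.25) against 0.946 (0.722 to 1.24). *Adamts5*, a metalloprotease gene, had ratios of 2.66 (0.476 to 27.0) and 3.80 (2.59 to 5.71) against 0.969 (0.436 to 2.17), and *Ltbp1*, with 10 and 0 UMIs in the CKO and control venous range, had ratios of 7.68 (4.02 to 16.1) in the rest and 1.68 (0.846 to 3.48) in the arterial range. These genes were chosen after their values by range were seen. The arterial interval was apart from that of the rest for 536 of 8507 tested genes, or 6.30%, and for 100 of 712 of those past 2-fold, and the difference between ranges was not tested. *Eln*, the elastin gene, was itself arterial, at 1012 CPM in the control and 108 CPM in the CKO library in that range and at 76.8 and 5.35 CPM in the rest, so that its ratios were 0.107 and 0.0696. The smooth muscle and fibroblast markers given above were also lower in the CKO library in the arterial range.

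**Figure D3:**
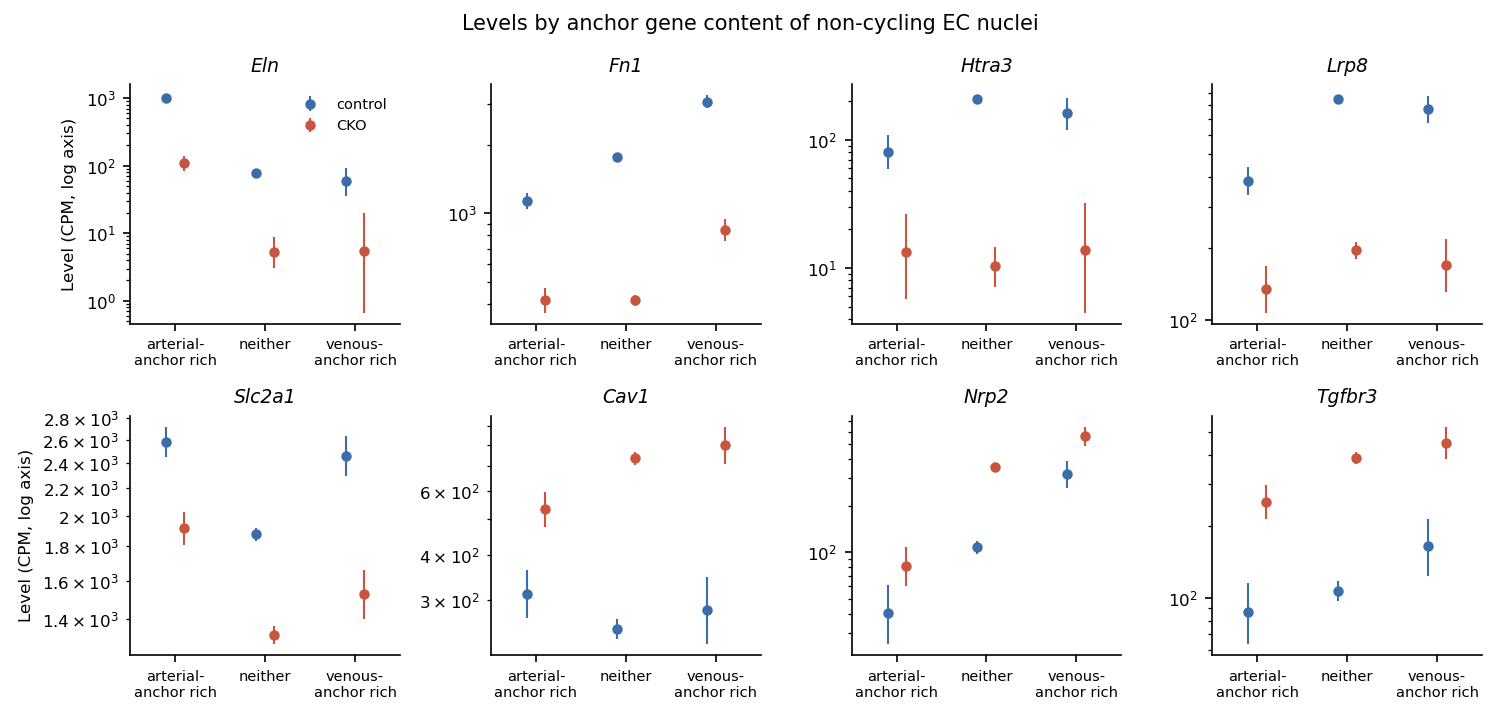
Levels of 8 genes in non-cycling EC nuclei rich in arterial anchors, rich in venous anchors or in neither, for the control (blue) and CKO (red) library, in CPM on log axes with 95% Poisson intervals. *Eln*, *Fn1*, *Htra3*, *Lrp8* and *Slc2a1* lie lower and *Cav1*, *Nrp2* and *Tgfbr3* higher in the CKO library in all 3 ranges.

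Matrix genes held the largest differences of the 3 lists, in both directions, though some of these genes had few UMIs in the control or the CKO library. Of 118 listed genes, 116 were detected, with *Lamb3* and *Itgb6* at 0, and 82 were tested. At least 2-fold higher were 7 genes, or 8.54% against 5.49% of all genes, and at least 2-fold lower were 11 genes, or 13.4% against 2.9%. Among the higher genes, *Itga2*, *Mmrn1*, *Ltbp1*, *Adamts5* and *Fbln1* passed the UMI minimum through their CKO counts. *Fndc1*, among the lower ones, passed it through its control counts. The size of these ratios therefore follows in part from the minimum. The upward share fell below that of all genes with thinning, at 3.92% against 5.57%, and in nuclei with no UMI of the G2/M list, at 0% against 7.69%, while the downward share stayed above it, at 9.80% against 2.85% and 16.2% against 7.88%. With a minimum of 500 UMIs, 2 matrix genes were higher, or 4.26% against 2.37% of all genes. At that minimum 5 were lower, or 10.6% against 2.42%. The upward share was above that of all genes in the nuclei with lower pericyte shares, at 12.3% against 5.48%. In those with 0 pericyte marker UMIs it was 35.7% of 14 genes against 6.97%. The median log2 ratio was -0.10 against 0.12.

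The most counted basement membrane genes differed by less than 2-fold, though the ratios of *Sparc*, *Col4a1* and *Col4a2* were 2.04, 4.31 and 1.91 in nuclei with 0 pericyte marker UMIs. *Sparc*, a collagen-binding protein gene, was at 4729 CPM in the control and 4015 CPM in the CKO library, a ratio of 0.849 (0.832 to 0.866). *Col4a1* and *Col4a2* encode the chains of the main collagen IV. The first was at 1818 and 2231 CPM, a ratio of 1.23 (1.19 to 1.26), and the second at 1408 and 1262 CPM, a ratio of 0.896 (0.864 to 0.930). Among laminins, *Lama4* was at 708 and 721 CPM, a ratio of 1.02 that falls below 1 with TMM scaling, while *Lama5* was at 107 and 46.5 CPM, a ratio of 0.436 (0.366 to 0.517). The nidogen genes, whose products link laminin to collagen IV, split into *Nid1* with a ratio of 0.607 and *Nid2* with 1.17. *Col15a1* was at 43.7 and 110 CPM, a ratio of 2.51 (2.12 to 2.98), or 5.52 in the nuclei with lower pericyte shares.

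Elastic and fibrillar matrix genes were lower in sum, from 3967 CPM in the control to 2133 CPM in the CKO library, and most of that difference was *Fn1*. *Fn1* (chr1:71624673-71692419, minus strand) was at 1782 CPM in the control and 456 CPM in the CKO library, a ratio of 0.256 (0.243 to 0.269). *Eln* (chr5:134731445-134776322, minus strand) was at 184 and 21.0 CPM, a ratio of 0.114 (0.0901 to 0.143) that was 0.249 in nuclei with at least 1000 UMIs and 0.401 with these thinned, so its size depended on the depth of the nuclei taken. *Fndc1*, which encodes a fibronectin domain protein, was counted 181 and 8 times, a ratio of 0.0525 (0.0223 to 0.106). *Fbln5*, whose product organizes elastin, was lower as well, as given above.

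The latent TGF-beta binding proteins of this group split. *Ltbp4*, whose product also guides elastic fiber assembly, was at 625 CPM in the control and 396 CPM in the CKO library, a ratio of 0.633 (0.595 to 0.674). *Ltbp1*, which stores latent TGF-beta in the matrix, was counted 25 and 102 times, a ratio of 4.84 (3.10 to 7.83), or 18.1 with thinning. *Fbln1*, a fibulin gene, was counted 45 and 104 times, a ratio of 2.74 (1.92 to 3.98). It was 4.21 with each nucleus weighted equally. With no UMI of the G2/M list it was 5.06 and with 0 pericyte marker UMIs 15.0, both from few UMIs and without intervals. *Dcn*, at 46.4 and 22.5 CPM, and *Col1a2*, at 298 and 274 CPM, are also fibroblast markers, and their source in these nuclei was not tested. Of 37 genes in the group 23 were tested, 2 were higher and 6 lower past 2-fold, against 5.49% and 2.9% of all genes, and the median log2 ratio was -0.13.

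Among multimerins and other EC surface proteins, *Mmrn1* (chr6:60901960-60966362, plus strand), a multimerin that in other tissues marks lymphatic ECs and platelets, was counted 22 times in the control and 168 times in the CKO library, a ratio of 9.06 (5.79 to 14.9), or 4.56 with thinning. Its relative *Mmrn2*, specific to ECs, was at 142 and 194 CPM, a ratio of 1.37 (1.23 to 1.52). *Egfl7*, a matrix protein secreted by ECs, was at 638 and 538 CPM, a ratio of 0.844. With *Vwf*, the 4 genes of this group thus had 2 ratios above 1 and 2 below.

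Remodeling enzymes held the lowest ratio of the 3 lists after *Fndc1*. *Htra3* (chr5:35809367-35837126, minus strand), a secreted serine protease gene, was at 190 CPM in the control and 11.1 CPM in the CKO library, a ratio of 0.0585 (0.0422 to 0.0793). Its relative *Htra1* was at 103 and 42.0 CPM, a ratio of 0.407 (0.339 to 0.487), or 0.518 in nuclei with no UMI of the G2/M list. *Plat*, which encodes tissue plasminogen activator, was at 480 and 315 CPM, a ratio of 0.656.

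Of the 21 tested remodeling genes, 2 were higher and 3 lower past 2-fold, against 5.49% and 2.9% of all genes. Ratios under 1 made up 57.1% of them, against 38.3% of all genes. The 4 tested metalloprotease genes of the ADAMTS family, which cleave proteoglycans, had 3 ratios above 1, too few to set against these shares. *Adamts9* was at 179 CPM in the control and 390 CPM in the CKO library, a ratio of 2.18 (2.01 to 2.38), but of 1.88 with each nucleus weighted equally. *Adamts5* was counted 52 and 128 times, a ratio of 2.92 (2.10 to 4.11). It was 4.78 with each nucleus weighted equally and 15.2 in nuclei with no UMI of the G2/M list, the latter from few UMIs and without an interval. *Adamts1* was at 80.3 and 133 CPM, a ratio of 1.65. *Adamts10* was the exception, at 113 and 74.3 CPM with a ratio of 0.658. The inhibitor gene *Timp3* was at 295 and 422 CPM, a ratio of 1.43 (1.33 to 1.54) that turned by range, from 0.479 (0.417 to 0.548) in the arterial range to 3.25 (2.32 to 4.64) in the venous range and 2.10 (1.91 to 2.31) in the rest, and the collagen chaperone gene *Serpinh1* was at 882 and 874 CPM, a ratio of 0.992 that was 3.53 in nuclei with 0 pericyte marker UMIs.

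Integrin subunits, the matrix receptors, mostly differed by less than 2-fold. *Itga1*, of the receptor for collagen IV, was at 1487 CPM in the control and 1843 CPM in the CKO library, a ratio of 1.24 (1.2 to 1.28), or 2.44 in nuclei with 0 pericyte marker UMIs. *Itga6*, a laminin receptor subunit, was at 463 and 567 CPM, a ratio of 1.23, and the shared beta subunit gene *Itgb1* was at 818 and 742 CPM, a ratio of 0.908 that was 3.87 in the same nuclei. *Itga2* (chr13:114969617-115068636, minus strand), of another collagen receptor, was counted 19 and 213 times, a ratio of 13.3 (8.31 to 22.5), or 42.5 in nuclei with no UMI of the G2/M list. The last value rests on few UMIs and has no interval. *Itga5*, of the fibronectin receptor, was at 102 and 65.0 CPM, a ratio of 0.639 (0.547 to 0.746), and thus lower along with its ligand *Fn1*. *Itga8* was counted 87 and 32 times, a ratio of 0.437 (0.282 to 0.662), or 0.759 with thinning. Among the nuclei with no UMI of the G2/M list its ratio was 2.28, from few UMIs and without an interval.

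**Figure D4:**
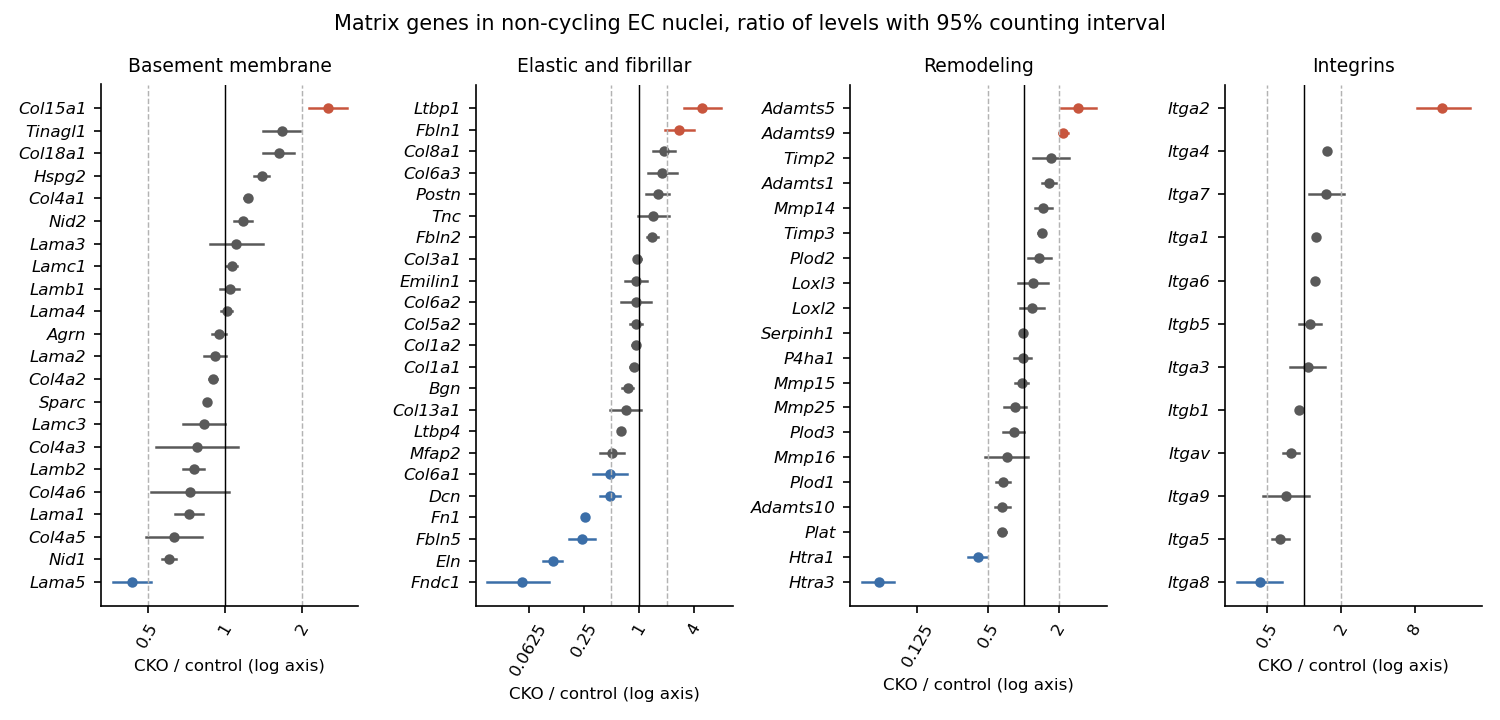
Ratios of CKO over control levels of matrix genes in non-cycling EC nuclei, on log axes, with bars for 95% counting intervals and dashed lines at 2-fold. Colored points are past 2-fold, red higher and blue lower, 1 tested gene of these 4 groups is not shown, and the lowest ratios are those of *Fndc1* at 0.0525, *Htra3* at 0.0585 and *Eln* at 0.114.

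For 5 genes, chosen after their values were seen, the differences also appeared as shares of nuclei with a UMI. This did not hold for every gene. *Cldn5*, whose level was lower in the CKO library, was found in 86.0% of control and 87.7% of CKO nuclei, or 89.2% and 84.3% with thinning. Nuclei were thinned to 1000 UMIs, which left out 947 control and 888 CKO nuclei that were shallower and kept 1257 and 1214. *Fn1* was found in 76.1% of thinned control and 33.4% of thinned CKO nuclei, and in 84.7% and 45.0% without thinning. *Lrp8* was found in 53.6% and 17.1%, and in 65.6% and 24.6% without thinning. *Cav1* was found in 22.5% and 49.3%, and in 35.6% and 62.7% without thinning. *Htra3* was found in 16.3% and 1.48%, and in 28.2% and 2.00% without thinning. *Tgfbr3* was found in 9.31% and 32.3%, and in 15.5% and 43.2% without thinning.

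As a background, the same shares were taken in Glut_0 neurons, which have median depths of 5004 UMIs in the control and 2314 UMIs in the CKO library and of which 268 and 723 were too shallow to thin. There, thinned shares were 0.054% and 0% for *Fn1*, 0% and 0% for *Cav1*, 0% and 0% for *Htra3* and 1.08% and 0.294% for *Tgfbr3*. For *Lrp8*, which neurons express, they were 1.74% and 4.92%. Every share of the 5 genes in thinned EC nuclei, the CKO share of *Htra3* included, was above the Glut_0 share of its library.

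The non-cycling nuclei are 4306 of the 5419 EC nuclei, so ratios in the 2 sets are close in part by construction. Of 190 named genes, 143 had a ratio in all EC nuclei within the interval of the non-cycling ones, and 47 lay outside it. Among genes with at least 200 UMIs, the log2 ratio of *Schip1* moved down most against all EC nuclei, from a ratio of 0.705 to 0.441, and its ratio in nuclei with a cell cycle UMI was 1.01. *Creb5* went from 1.11 to 0.720, *Atad2*, a chromatin gene of S phase, from 1.48 to 0.993, *Agpat5* from 1.69 to 1.17, and *Ccn1*, a matricellular target of YAP, from 1.22 to 0.844. In the other direction *Igfbp5* went from 0.959 to 1.80, *Ptgds*, a prostaglandin synthase of meninges and choroid plexus, from 0.302 to 0.529, *Htr2c* from 1.83 to 2.70 and *Hdac3* from 4.89 to 8.10. The ratios of *Fn1*, *Lrp8*, *Tfrc* and *Htra3* were 0.272, 0.227, 0.333 and 0.0531 in all EC nuclei against 0.256, 0.233, 0.349 and 0.0585 in the non-cycling ones.

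Pericyte markers, of which *Rgs5* was the most counted, were a further way to divide the nuclei. Those with 0 pericyte marker UMIs numbered 335 and 103 in the control and CKO library and were shallow, with medians of 503 and 439 UMIs. Several larger differences were about as large or larger there, with ratios of 0.186 for *Fn1*, 0.126 for *Tfrc*, 0.335 for *Spock2* and 3.15 for *Cav1*. Others turned, among them differences past 2-fold, with ratios of 0.824 for *Tgfb2*, 1.02 for *Flt4*, 0.407 for *Uty* and 1.60 for *Hbb-bs*. *Cldn5* had a ratio of 1.12, *Slc6a6* of 0.797, *Abcb1a* of 0.744, *Abcg2* of 0.963, *Col4a2* of 1.91 and *Sparc* of 2.04 in these nuclei, and *Col4a1* had a ratio of 4.31. Here *Tgfb1*, *Ccn1* and *Atad2* were at 2.62, 4.99 and 2.99, and *Tjp1* and *Arl15* at 0.637 and 0.499, each on the other side of 1 from the value above. The CKO nuclei of this group held 54656 UMIs in all, against 204471 in the control. Genes with few UMIs therefore have uncertain ratios here, and no intervals are given. Whether these ratios differ from the main ones was not tested.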

How the data were processed

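The deposited matrix used here holds raw UMI counts of each gene in each nucleus, for 1 control and 1 CKO library of brain vascular fragments. The libraries were captured by PIPseq with 3′ tagging. The study gives about 40000 nuclei per library for the larger of its kits and does not state the kit of the brain libraries. The authors made these counts with PIPseeker on the GRCm39 genome, removed empty droplets and background with CellBender and doublets with SOLO, and removed mixed nuclei by hand. The submitters' processing notes name mm10 and Seurat. Cell types are the authors' labels, and the library of a nucleus was read from its barcode suffix. The deposited UMAP coordinates were not used, and the retina libraries were not analysed here.

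From these counts, EC nuclei with 0 summed UMIs of the 4 cell cycle genes were selected, and the UMIs of each gene were summed per library and divided by their total. Levels have exact Poisson intervals, ratios exact conditional binomial intervals and shares exact binomial intervals. Genes with at least 100 UMIs over both libraries were counted as higher or lower past 2-fold. No test was made and no p-value is given, because there is 1 library per genotype. The calculation was tested on simulated data. The 2 libraries hold 49798325 and 31033373 UMIs in all brain nuclei.

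The genes named were the EC identity genes, the 4 selecting genes, TGF-beta pathway genes, *Xist* and Y chromosome genes, in each role of the barrier, zonation and matrix lists the 3 members with the most UMIs and up to 5 past 2-fold in each direction, the 5 genes in each direction whose log2 ratio moved most from all EC nuclei, the 10 highest and 10 lowest ratios among genes with at least 200 UMIs, and markers of other cell types. Some genes that fit these rules are not named. Other list members named were chosen after their values were seen, among them *Ocln*, *Slc2a1*, *Slc3a2*, *Mfsd2a*, *Slc5a6*, *Plvap*, *Fzd4*, *Itm2a*, *Ivns1abp*, *Dll4*, *Efnb2*, *Unc5b*, *Icam1*, *Vcam1*, *Sele*, *Ackr1*, *Angpt2*, *Trp53i11*, *Lama4*, *Nid1*, *Nid2*, *Adamts1*, *Adamts10* and *Itga5*. So were the genes whose shares of nuclei or levels by anchor range are given. The selection and all lists were chosen with earlier results of these data known.

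Alternatives covered all EC nuclei, no UMI of the G2/M list of Seurat 5.3.0, no UMI of *Mki67* and *Top2a*, depth, equal weight per nucleus, thinning, TMM factors of edgeR 4.0.16, pericyte and neuron markers, 2 or more of the 4 EC markers, the UMI minimum, the fold, and leaving out X, Y and mitochondrial genes. Leaving out hemoglobin genes was added after the data were seen. Gene positions are from GENCODE M39 on GRCm39. R 4.3.3 and Python 3.11.15 were used, the latter with pandas 2.3.3, scipy 1.17.1, numpy 2.4.6 and matplotlib 3.10.9.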

Additional observations from a re-analysis of the deposited data

How the results depend on the processing

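The cause of the changes below was not tested, except that stricter or looser minimums and folds change by construction how many genes can pass. With the main choices, 468 of all genes were at least 2-fold higher and 247 lower, with 2 and 5 barrier, 1 and 5 zonation and 7 and 11 matrix genes. In all EC nuclei, 734 of all genes and 2 zonation genes were higher. In nuclei with 0 UMIs of the G2/M list, which were 28.3% of control and 15.3% of CKO EC nuclei and left 1638 genes to test, 126 of all genes were higher and 129 lower, 1 barrier, 3 zonation and 0 matrix genes were higher and 6 matrix genes lower. There the ratio was 0.996 for *Uty*, 2.28 for *Itga8*, 1.26 for *Pdgfra* and 1.52 for *C1qa*, each on the other side of 1 from the main value. These ratios have no intervals. Those of *Itga8*, *Pdgfra* and *C1qa* rest on few UMIs, so they cannot tell a turn from counting error. In nuclei with at least 1000 UMIs, 1 barrier gene was higher. With each nucleus weighted equally, 1224 of all genes and 2 zonation genes were higher and 8 zonation genes lower. With nuclei thinned to 1000 UMIs, which left 4704 genes, 262 of all genes were higher and 134 lower, 1 barrier and 2 matrix genes were higher and 5 matrix genes lower.

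With TMM factors, 343 of all genes were higher and 332 lower, a nearly even split, and 8 zonation genes were lower. In the nuclei of each library with the lower pericyte shares, 8 zonation and 7 matrix genes were lower. In nuclei with 0 pericyte marker UMIs, which left 502 genes, 35 of all genes were higher and 121 lower, and 10 barrier, 9 zonation and 4 matrix genes were lower. There the ratio was 0.824 for *Tgfb2*, 0.407 for *Uty*, 1.02 for *Flt4* and 1.60 for *Hbb-bs*, again on the other side of 1 and without intervals. In nuclei with 0 neuron marker UMIs, 1 barrier gene was higher. With a minimum of 20 UMIs, 1251 of all genes were higher and 686 lower, 4 barrier and 2 zonation genes were higher, and 8 zonation and 17 matrix genes lower. With a minimum of 500 UMIs, 87 of all genes were higher and 89 lower, 1 barrier and 2 matrix genes were higher and 5 matrix genes lower. With a fold of 1.5, 1413 of all genes were higher and 642 lower, 5 barrier, 5 zonation and 16 matrix genes were higher, and 16 barrier, 17 zonation and 19 matrix genes lower. The counts under these alternatives that are not given, and all counts without hemoglobin genes, without X, Y and mitochondrial genes or with 2 or more EC markers, were within 1.5 times the main ones.

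The share of EC nuclei without a cell cycle UMI was 85.5% in the control library, against 64.3% in the CKO library, among nuclei with at least 1000 UMIs, 91.5% and 79.4% with thinning, and 73.4% in the CKO library if only *Mki67* and *Top2a* were used. It was lower in the CKO library under each of these choices, all of which use the selecting genes again. These shares therefore describe the selection in 1 library per genotype and are not a finding. Of 59 named genes past 2-fold, 53 were still past it in all EC nuclei, 56 with TMM factors and 54 in the nuclei with lower pericyte shares. So were 42 of the 54 that could be compared in nuclei with 0 UMIs of the G2/M list, and 40 of 45 in those with 0 pericyte marker UMIs. No paired analysis was possible because each genotype has 1 library. Depth limits the genes with few counts, and a gene under 100 UMIs was compared only in the counts made with a lower minimum.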

Other observations

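Beyond the barrier, zonation and matrix lists, the highest ratios in the non-cycling nuclei belonged to genes with low levels in the control library, at most 28.3 CPM among those named here. *Nr5a2* (chr1:136770303-136888186 on the minus strand of GRCm39), which encodes a nuclear receptor, was counted 13 times in the control and 402 times in the CKO library, a ratio of 36.7 (21.2 to 69.5) that was 10.0 in nuclei with no UMI of the G2/M list, 16.3 with each nucleus weighted equally and 69.2 in nuclei with at least 1000 UMIs. *Ahr*, the receptor for aryl hydrocarbons, was counted 13 and 211 times, a ratio of 19.3 (11.0 to 36.8), or 47.7 with equal weights, and of 38.0 in nuclei rich in neither anchor set against 1.94 (0.744 to 5.62) in the arterial range. The transcription factor genes *Tox* and *Tox3* were at 6.39 and 89.8 CPM and at 28.3 and 205 CPM, with ratios between 9.67 and 21.1 and between 6.00 and 8.74, but of 33.4 and 37.6 in nuclei with no UMI of the G2/M list. These last values come from shallow nuclei with few control UMIs of the genes and have no intervals. *Pcdh17*, a protocadherin gene, was at 11.7 and 142 CPM, a ratio of 12.1, and *Ugcg*, which makes glucosylceramide, at 5.54 and 46.8 CPM, a ratio of 8.45. *Nckap5*, *Slc22a23* and *Hdac3* had ratios of 8.50, 6.66 and 8.10. All these genes passed the minimum of 200 UMIs through their CKO counts, so low control and higher CKO levels follow from the selection. In nuclei with a cell cycle UMI the ratios were 41.3 for *Nr5a2*, 13.3 for *Tox* and 10.9 for *Pcdh17*, but 7.64 for *Ahr*, 3.42 for *Ugcg* and 1.85 for *Hdac3*.

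As shares of nuclei thinned to 1000 UMIs, *Nr5a2* was found in 0.318% of control and 8.73% of CKO nuclei, and in 0.544% and 14.5% without thinning, against 0.054% and 0% of thinned Glut_0 neurons. *Tox*, in 0.398% and 6.75% of thinned EC nuclei, was in 17.5% and 17.8% of thinned Glut_0 neurons. *Pcdh17*, in 0.796% and 10.4% of thinned EC nuclei, was in 15.0% and 11.5% of them, and *Ahr*, in 0.159% and 4.78%, was in 1.63% and 1.01%. The part of neuronal RNA in these counts was not tested. In EC nuclei with 0 neuron marker UMIs the ratios were 45.0 for *Tox*, 27.3 for *Pcdh17* and 40.1 for *Ahr*.

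The lowest ratios after *Xist* belonged to genes that were moderate in the control library, through whose counts they passed the same minimum. *Spsb1*, for a ubiquitin ligase adaptor, was counted 295 times in the control and 7 times in the CKO library, a ratio of 0.0282 (0.0112 to 0.0588). *Slc44a5*, of the choline transporter-like family, was counted 349 and 9 times, a ratio of 0.0306. *Map7*, for a microtubule-binding protein, was at 96.1 and 4.30 CPM, a ratio of 0.0447, and *Retreg1*, for a receptor of endoplasmic reticulum turnover, at 82.4 and 8.09 CPM, a ratio of 0.0981. *Adamtsl2*, whose product binds latent TGF-beta binding proteins, was at 93.9 and 11.1 CPM, a ratio of 0.118 (0.0848 to 0.162). *Dync1i1*, a dynein chain gene, and *AU021092* had ratios of 0.115 and 0.132. All were also low in nuclei with a cell cycle UMI, with ratios between 0.0588 for *Spsb1* and 0.181 for *Retreg1*.

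Immediate early and stress genes, which respond to handling of tissue, summed to 565 CPM in the control and 522 CPM in the CKO library. Of these 10 genes, 5 were tested and none was past 2-fold, too few to set against the 5.49% and 2.9% of all genes, with *Jun* the most abundant at 173 and 153 CPM.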
